A study of Mus musculus with 20 samples.

Results

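Iron enters cells as transferrin-bound iron or as free ferrous iron, is kept in ferritin and leaves through ferroportin. Here 9 mouse genes that carry out these steps were followed in bone marrow and kidney after oxaliplatin, a platinum drug given against colorectal cancer. The genes were taken by symbol from the raw count tables of both tissues, 9 of the 55486 genes listed in each. They are Tfrc, Tfr2, Slc11a2 and Steap3 (uptake), Fth1, Ftl1 and Ncoa4 (storage and release from storage), Slc40a1 (export) and Hfe (sensing). Each gene was placed under 1 heading for counting, which does not exclude a part in another step. C57BL/6 mice of both sexes, 10 weeks old at the start, received 10 mg/kg oxaliplatin in 5% dextrose, or 5% dextrose alone as vehicle, by intraperitoneal injection over 8 weeks. Marrow was spun out of the leg bones once 6 days had passed since the final dose, and kidney was also taken. Each tissue and treatment was measured in 5 libraries labelled as biological replicates, 20 in all. The labels do not tie a marrow library to a kidney library of the same mouse, and "mouse" below means the animal behind 1 library of the tissue in question.

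Red cell precursors use more iron than other cells of the body because they make hemoglobin. They take up transferrin through transferrin receptor 1 (Tfrc), reduce the released iron in the endosome with Steap3 and pass it to the cytosol through Slc11a2 (DMT1). Macrophages of marrow and spleen recycle the iron of old red cells and return it to plasma through ferroportin (Slc40a1), while the kidney tubule recovers filtered iron. When a cell is short of iron, iron regulatory proteins bind hairpins called iron-responsive elements. A hairpin in the 3′ untranslated end protects the mRNA from decay, and a hairpin in the 5′ untranslated end blocks its translation.

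The hairpins of the 4 genes with a match to the search below are shown. They mark mRNAs that can be regulated through their amount or through their translation, and only the amount of RNA was measured here. The hairpins were found in the untranslated ends of all protein-coding GENCODE M21 transcripts of GRCm38 with a consensus coding sequence (CCDS). The search asked for a C, 5 paired bases on each side and the loop letters CAGTGN. The capitals mark the unpaired C and the first letters of the loop. A window of 30 bases is given for each, in the sense of the mRNA.
Tfrc 3′ end, chr16:32631219-32631248, plus strand: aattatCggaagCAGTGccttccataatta
Tfrc 3′ end, chr16:32631598-32631627, plus strand: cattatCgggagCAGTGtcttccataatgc
Tfrc 3′ end, chr16:32631663-32631692, plus strand: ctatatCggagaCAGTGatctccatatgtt
Tfrc 3′ end, chr16:32631710-32631739, plus strand: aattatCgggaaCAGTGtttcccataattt
Slc40a1 5′ end, chr1:45925464-45925493, minus strand: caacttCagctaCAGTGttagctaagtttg
Fth1 5′ end, chr19:9982732-9982761, plus strand: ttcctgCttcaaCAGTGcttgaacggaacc
Ftl1 5′ end, chr7:45459778-45459807, minus strand: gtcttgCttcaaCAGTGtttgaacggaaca

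The Tfrc mRNA had 4 such hairpins in its 3′ untranslated end of 2461 bases, and the mRNAs of Slc40a1, Fth1 and Ftl1 had 1 each in their 5′ untranslated ends. Among 20323 protein-coding genes searched the same way, 0.113% had a match in the 5′ end and 0.556% in the 3′ end. The CCDS transcripts of the other 5 genes held no match. A hairpin with an interrupted stem or other loop letters would be missed by this search. The count in a gene is therefore a minimum, and no match does not show that an iron-responsive element is absent. The 2 ferritin hairpins shared the stem letters next to the loop, while the Slc40a1 stem differed from both.

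Total counts per library ranged from 30660153 to 41140527 in marrow and from 24393007 to 30925430 in kidney. Levels are CPM, in which the counts of a library are scaled to a common TMM-adjusted total. A floor of 3 counts corresponded to between 0.0668 and 0.0975 CPM in marrow and between 0.0900 and 0.130 CPM in kidney, for counting error only. Each group was compared within its tissue by the quasi-likelihood test of edgeR, two-sided, with Benjamini-Hochberg adjustment over all genes tested, and a gene was called when it passed an adjusted p of 0.05 with more than a 1.5-fold change. All 9 iron genes passed the filter on low counts in both tissues.

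Markers of several cell types moved with treatment, and in bulk RNA fewer cells of a type and less RNA per cell cannot be told apart. In marrow the summed CPM of 18 late erythroid genes (hemoglobins, Alas2, Slc4a1 and others) was 35166 to 59648 CPM with vehicle and 4681 to 11425 CPM with oxaliplatin, and all 18 were called lower. The sum of 12 early erythroid genes (Gata1, Klf1, Epor and others) was 2544 to 3387 CPM with vehicle and 1027 to 2089 CPM with oxaliplatin, with 9 of 11 tested genes called lower. The sum of 14 macrophage genes was 1668 to 2258 CPM with vehicle and 1899 to 3963 CPM with oxaliplatin, with 6 called higher (Mrc1, Siglec1 and C1qa among them) and 3 called lower (Spic, Timd4 and Marco). Adipocyte genes were 126 to 198 CPM with vehicle and 570.0 to 2662 CPM with oxaliplatin, and skeletal muscle genes were 9.75 to 107 CPM with vehicle and 45.0 to 828 CPM with oxaliplatin. Neutrophil genes were low in oxaliplatin mice 3 and 4 (9556 and 11352 CPM) against 19084 CPM or more in each of the other 8 mice. In kidney the sum of 9 proximal tubule genes was 21698 to 24324 CPM with vehicle and 11627 to 17795 CPM with oxaliplatin, with 3 called lower and none higher. Kap made up most of that fall, with a mean of 8268 CPM with vehicle and 2220 CPM with oxaliplatin, while the median log2 fold change of the list was 0.09. Without the fold threshold 6 of the 9 passed an edgeR adjusted p of 0.05, 4 lower and 2 higher, where 29.4% of all kidney genes tested passed. The sum of 6 distal nephron and collecting duct genes was 4494 to 5320 CPM with vehicle and 5568 to 6047 CPM with oxaliplatin, with 2 of 6 past an edgeR adjusted p of 0.05, both higher and both under the fold threshold. The kidney adipocyte sum was 39.7 to 65.9 CPM with vehicle and 85.0 to 203 CPM with oxaliplatin, with 5 of 7 tested genes called, all higher. The kidney sum of 14 macrophage genes was 234 to 268 CPM with vehicle and 188 to 210.4 CPM with oxaliplatin, with 2 of 11 tested called higher and 5 lower. The labelled tissues showed their own markers in every library.

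Per kilobase of principal transcript, ferritin heavy chain mRNA had the highest mean of the 9 in both tissues and both treatments. The order depended on the length used, and values with the exons of every annotated transcript joined, a length chosen after seeing the data, are given where it turned. In vehicle marrow the means were 1258 ± 107 CPM per kb for Fth1, 296 ± 39.7 for Ftl1, 135 ± 18.2 for Tfrc, 116 ± 14.3 for Slc40a1 and 78.6 ± 10.5 for Ncoa4 (SD, n = 5). Steap3, Slc11a2, Tfr2 and Hfe followed at 29.7 ± 2.70, 28.8 ± 3.19, 15.2 ± 1.36 and 4.75 ± 0.773. Neighbours in this order had separate ranges over the 5 mice except Tfrc with Slc40a1 and Steap3 with Slc11a2. After oxaliplatin Tfrc stood below Slc40a1 and Ncoa4, at 51.7 ± 15.7 CPM per kb, and its range overlapped that of Ncoa4. With joined exons Tfrc instead had 40.9 CPM per kb, above Slc40a1 at 37.7 with ranges that overlapped and above Ncoa4 at 21.04 with ranges apart, and Ftl1 at 299 stood above Fth1 at 275, also overlapping. By principal transcript the 4 genes at the low end, Steap3, Slc11a2, Tfr2 and Hfe, then overlapped each with the next. With joined exons Hfe at 6.62 CPM per kb stood above Slc11a2 at 5.71 and Tfr2 at 5.57, with ranges that overlapped.

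The vehicle kidney had a different order. Fth1 stood at 4508 ± 669.7 CPM per kb and Ftl1 at 403 ± 28.7, and Slc11a2 came next with 43.3 ± 3.69. Tfrc was at 11.2 ± 1.30 and overlapped Slc40a1 at 10.8 ± 0.571, Hfe at 4.99 ± 0.448 overlapped Steap3 at 4.32 ± 0.347, and Tfr2 was lowest at 0.354 ± 0.133 CPM per kb. After oxaliplatin the kidney order differed from this in 1 place, with Slc40a1 at 15.0 ± 1.49 above Tfrc at 9.21 ± 1.64 and their ranges apart. With joined exons this exchange was absent, since Tfrc was above Slc40a1 in vehicle kidney (8.86 and 4.05) and in treated kidney (7.28 and 5.61 CPM per kb). Hfe also stood above Slc40a1 with joined exons, at 4.99 CPM per kb in vehicle kidney and 6.48 in treated kidney, with ranges that overlapped. The tissues were scaled separately, so no level is compared between them.

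The genes grouped under uptake fell in bone marrow. All 4 of them (Tfrc, Tfr2, Slc11a2 and Steap3) were called lower after oxaliplatin, by between 1.82-fold and 2.61-fold, and in each of the 4 the highest oxaliplatin mouse was below the lowest vehicle mouse. No gene grouped under storage, export or sensing was called by edgeR or DESeq2, although 4 of these 5 had an unadjusted p under 0.05 in edgeR. This split depends on the headings. With Tfr2 placed beside Hfe under sensing, a gene of that heading would have been called. Of the 9 genes 4 were called, all lower, where 23.3% of the 22363 genes tested in marrow were called (11.6% higher and 11.8% lower) and the groups did not overlap for 24.9%. Without the fold threshold 7 of 9 passed (5 lower, 2 higher), against 33.1% of all genes. The median log2 fold change was -0.42 over the 9 genes and -0.04 over all genes tested.

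Tfrc (ENSMUSG00000022797, chromosome 16 from 32608920 to 32632794), the receptor that takes up transferrin, was at 568, 681, 759, 728 and 568 CPM in vehicle mice 1 to 5. In oxaliplatin mice 1 to 5 it was at 168, 262, 355, 293 and 186 CPM. The groups were apart, and oxaliplatin mice 3 and 4, with few neutrophil transcripts, were the highest of their group. The mean fell from 661 ± 89.1 to 253 ± 76.9 CPM (SD over 5 mice each), a log2 fold change of -1.39 (SE 0.19, 95% interval -1.80 to -0.97, edgeR adjusted p = 1.1e-04).

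Slc11a2 (ENSMUSG00000023030, chromosome 15 from 100387898 to 100425072), which carries ferrous iron out of the endosome, was at 83.0, 92.8, 98.8, 86.8 and 73.5 CPM in the vehicle mice and 28.5, 35.6, 45.3, 45.9 and 26.1 CPM in the oxaliplatin mice. Mice 3 and 4 were again the highest treated animals, without reaching the vehicle range. The fall was from 87.0 ± 9.65 to 36.3 ± 9.20 CPM (SD over 5 mice each), a log2 fold change of -1.26 (SE 0.16, 95% interval -1.60 to -0.92, edgeR adjusted p = 5.1e-05). The gene shares 402 exonic bases with Gm5475 on the opposite strand, and whether counting used strand is not given in the sources used here.

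Steap3 (ENSMUSG00000026389, chromosome 1 from 120190757 to 120272705), the endosomal ferrireductase, was at 85.4, 82.5, 96.4, 93.3 and 77.0 CPM in the vehicle mice and 30.7, 48.1, 68.8, 58.7 and 32.8 CPM in the oxaliplatin mice. Its change was a log2 fold change of -0.86 (SE 0.20, 95% interval -1.29 to -0.43, edgeR adjusted p = 0.0047). Tfr2 (ENSMUSG00000029716, chromosome 5 from 137569840 to 137587481), a second transferrin receptor found in liver and in erythroid cells, was at 46.0, 46.6, 49.0, 42.2 and 38.9 CPM in the vehicle mice. After oxaliplatin it was at 13.4, 20.5, 37.2, 33.0 and 16.7 CPM, with a treated range from 13.4 to 37.2 CPM, just under the vehicle minimum of 38.9 CPM. Its change was a log2 fold change of -0.88 (SE 0.24, 95% interval -1.41 to -0.35, edgeR adjusted p = 0.014). In each of the 4 uptake genes mice 1 and 5 were the lowest treated animals and mice 3 and 4 the highest. Without mice 3 and 4, an alternative chosen after seeing the data, the same 4 genes were called, and the log2 fold change was -1.68 for Tfrc, -1.53 for Slc11a2, -1.40 for Tfr2 and -1.22 for Steap3. Tested against 1.5-fold rather than against no change, only Tfrc and Slc11a2 passed (adjusted p = 0.0019 and 0.0016), while Steap3 and Tfr2 did not (0.17 and 0.22). The labels do not give the sex of each mouse, and whether the sexes were balanced between the groups is not known here. A covariate of Y-linked genes, the mean log2 CPM of Ddx3y, Eif2s3y, Kdm5d and Uty, was used in its place. With this covariate the log2 fold change was -0.59 for Tfr2 and -0.61 for Steap3. The edgeR adjusted p of Tfr2 was then 0.077, within a range of 1.4e-06 to 0.077 over its 20 alternatives other than the test against 1.5-fold.

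**Figure D1:**
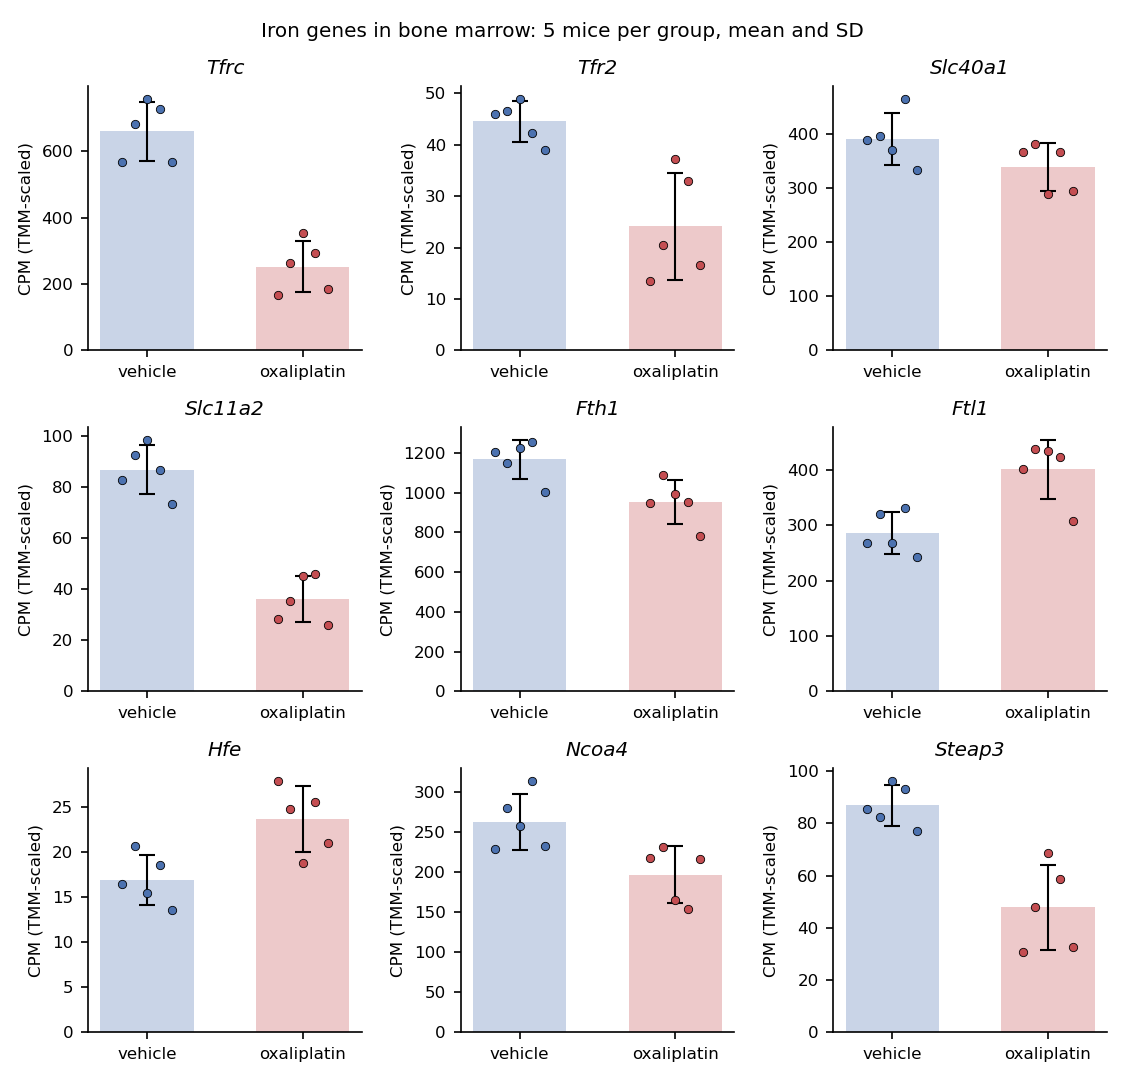
CPM of the 9 iron genes in bone marrow on the vertical axes, 1 panel per gene, with points for the 5 vehicle (blue) and 5 oxaliplatin (red) mice, bars for group means and whiskers for the SD. In the panels of Tfrc, Tfr2, Slc11a2 and Steap3 every treated mouse lies below every vehicle mouse, and in the other 5 panels the groups overlap.

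The storage genes did not move together in marrow. Fth1 (ENSMUSG00000024661, chromosome 19 from 9980598 to 9985098), the ferritin heavy chain that oxidizes iron, was at 1206, 1151, 1226, 1254 and 1004 CPM in the vehicle mice and 948, 1089, 996, 951 and 782 CPM in the oxaliplatin mice, a log2 fold change of -0.29 (SE 0.11, 95% interval -0.54 to -0.05, edgeR adjusted p = 0.067). Its change did not pass the test. Ftl1 (ENSMUSG00000050708, chromosome 7 from 45457944 to 45459884), the light chain that supports the iron core, was at 268, 321, 268, 332 and 242 CPM in the vehicle mice and 402, 437, 434, 423 and 308 CPM in the oxaliplatin mice. Treated mice 1 to 4 lay above every vehicle mouse and mouse 5 within the vehicle range. The rise of Ftl1 stayed under the fold threshold, a log2 fold change of 0.49 (SE 0.12, 95% interval 0.22 to 0.76, edgeR adjusted p = 0.0084). With treated mouse 5 left out it passed that threshold at 0.61, as it did with the covariate of Y-linked genes at 0.60.

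Within each marrow, the balance of the 2 ferritin mRNAs changed more than either gene alone, because their 2 changes had opposite signs. The ratio of Fth1 to Ftl1 per kilobase of transcript was 4.69, 3.74, 4.77, 3.94 and 4.32 in vehicle mice 1 to 5 and 2.45, 2.60, 2.39, 2.34 and 2.65 in oxaliplatin mice 1 to 5, with no overlap. The difference of log2 CPM, Fth1 minus Ftl1, was 2.04 ± 0.15 with vehicle and 1.25 ± 0.08 with oxaliplatin (SD, n = 5 per group), a change of -0.78 (exact two-sided permutation test, p = 0.0079, the smallest that divisions of 10 mice allow, adjusted p = 0.029 over 11 contrasts). With exons of every annotated transcript joined in place of the principal transcript, a length chosen after seeing the annotation, the mean ratio was 1.59 with vehicle and 0.922 with oxaliplatin. Annotated ferritin copies took between 0.267% and 0.611% of the reads of Fth1 and its copies in marrow, and between 3.47% and 4.42% for Ftl1. Ftl1 overlaps Gm22133 and, on the opposite strand, Gm10252.

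Ncoa4 (ENSMUSG00000056234, chromosome 14 from 32159865 to 32179855), the receptor that delivers ferritin to the lysosome so that its iron is released, was at 229, 279.8, 258, 314 and 233 CPM in the vehicle mice. After oxaliplatin it was at 218, 232, 165, 153 and 217 CPM, lowest in mice 3 and 4, the 2 animals in which the uptake genes were highest. The groups overlapped. The change was 1.33-fold, a log2 fold change of -0.42 (SE 0.13, 95% interval -0.71 to -0.12, edgeR adjusted p = 0.03). This adjusted p rose above 0.05 with vehicle mouse 2, 3 or 4 or oxaliplatin mouse 4 left out (0.055 to 0.075), at library size alone (0.093) and without mice 3 and 4 (0.095). With the covariate of Y-linked genes Ncoa4 would be called lower, at -0.60 (adjusted p = 0.0064), and the adjusted p lay within a range of 0.0064 to 0.095 over 20 alternatives other than the test against 1.5-fold.

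Neither of the genes grouped under export and sensing was called in marrow. Slc40a1 (ENSMUSG00000025993, chromosome 1 from 45908068 to 45926523), ferroportin, was at 388, 395, 369, 465 and 333 CPM in the vehicle mice and 366, 381, 289, 367 and 294 CPM in the oxaliplatin mice, a log2 fold change of -0.20 (SE 0.12, 95% interval -0.46 to 0.06, edgeR adjusted p = 0.22). The groups overlapped, and the interval leaves room for a fall of up to 0.46 on the log2 scale. Hfe (ENSMUSG00000006611, chromosome 13 from 23702034 to 23710854), a membrane protein that binds transferrin receptor 1 and takes part in the sensing of iron, was at 16.5, 20.7, 15.5, 18.6 and 13.6 CPM in the vehicle mice. In the oxaliplatin mice it was at 28.0, 24.8, 18.8, 25.6 and 21.1 CPM. Only treated mouse 3 lay inside the vehicle range, and the change was 1.39-fold, a log2 fold change of 0.48 (SE 0.14, 95% interval 0.18 to 0.78, edgeR adjusted p = 0.018).

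Each marrow gene was then compared, within the same mouse, with the marker list of a cell type known to use it. Of 11 contrasts, including the ferritin pair in both tissues, 3 passed an adjusted p of 0.05. Tfrc, Tfr2 and Slc11a2 minus the mean of 11 early erythroid genes changed by -0.16, 0.29 and -0.02 on the log2 scale (exact permutation tests, adjusted p = 0.14, 0.14 and 0.88), so that no change of these genes beyond that of the early erythroid list was detectable with 5 mice per group. Steap3 and Ncoa4 minus the mean of 18 late erythroid genes rose by 1.81 and 2.31 (exact permutation tests, adjusted p = 0.029 for both), with every treated mouse above every vehicle mouse. Both genes thus lost less of their level than the late erythroid list did. That list had a median log2 fold change of -2.75, so any gene with a smaller fall would rise against it. The early erythroid list had a median of -1.24, and neither gene was compared with it. The contrasts therefore do not show a trait particular to Steap3 or Ncoa4.

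Against the mean of 14 macrophage genes, Slc40a1 changed by -0.36, Fth1 by -0.45, Hfe by 0.33 and Ftl1 by 0.33 (exact permutation tests, adjusted p = 0.13, 0.13, 0.14 and 0.24). The members of that list moved both ways, and these values depended on how it was summarised. With the median of the list in place of the mean, Slc40a1 changed by -1.28 and Fth1 by -1.38 (exact permutation tests, adjusted p = 0.015 for both), and Hfe and Ftl1 turned to -0.60 each (adjusted p = 0.015 and 0.062). Without oxaliplatin mice 3 and 4, 5 contrasts passed in place of 3, with Slc40a1 at -0.58 and Fth1 at -0.73 against the macrophage mean (exact permutation tests, adjusted p = 0.039 for both).

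**Figure D2:**
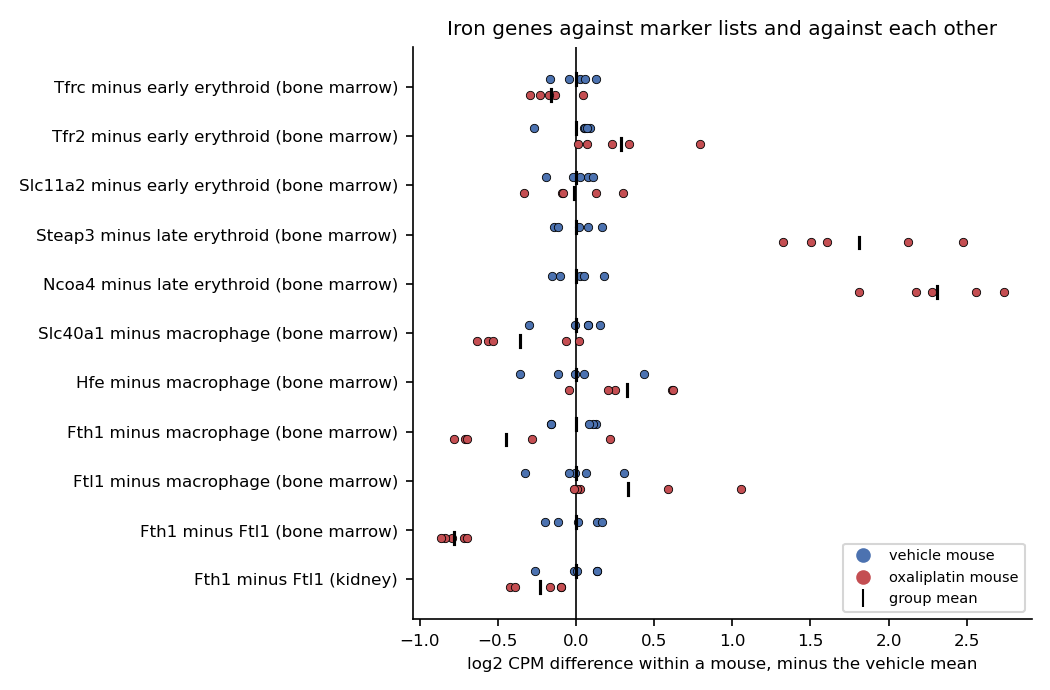
Difference of log2 CPM within a mouse on the horizontal axis, shown minus the vehicle mean of each contrast, for 11 contrasts listed on the vertical axis. Points are mice (blue vehicle, red oxaliplatin, 5 each) and black ticks are group means; Steap3 and Ncoa4 against the late erythroid list lie 1.81 and 2.31 higher after oxaliplatin, and Fth1 against Ftl1 in marrow lies 0.78 below its vehicle mean.

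In kidney 2 of the 9 genes were called, Tfr2 higher and Steap3 lower, where 11.5% of the 19293 genes tested were called (7.68% higher and 3.81% lower). Without the fold threshold 5 of 9 passed, against 29.4% of all genes, with Slc40a1 and Hfe added among the higher and Slc11a2 among the lower. The groups did not overlap for 4 of the 9, against 20.7% of all genes. The median log2 fold change was -0.09 over the 9 genes and 0.02 over all genes tested. Scaled by library size alone, which shifted the median of all kidney genes from 0.02 to 0.16, the 2 called genes were Tfr2 and Slc40a1, both higher. The same scaling shifted the marrow median from -0.04 to 0.11 and called 6 iron genes there, the 4 lower ones and also Ftl1 and Hfe as higher.

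Slc40a1 was at 36.1, 37.7, 34.4, 34.9 and 39.0 CPM in the vehicle kidneys and 52.1, 50.9, 49.7, 56.7 and 42.9 CPM in the oxaliplatin kidneys. All 5 treated mice were above all 5 vehicle mice, with a 1.39-fold rise, a log2 fold change of 0.47 (SE 0.08, 95% interval 0.31 to 0.63, edgeR adjusted p = 2.2e-04). Slc11a2, which in the tubule moves recovered iron across membranes, was at 125, 116, 138, 130.0 and 145 CPM in the vehicle kidneys and 101.5, 91.8, 90.8, 86.6 and 104 CPM after oxaliplatin. Every treated mouse was below every vehicle mouse, a log2 fold change of -0.46 (SE 0.07, 95% interval -0.62 to -0.31, edgeR adjusted p = 2.2e-04). Hfe was at 19.2, 19.1, 17.1, 15.4 and 18.4 CPM in the vehicle kidneys and 26.1, 25.4, 20.6, 22.0 and 21.6 CPM after oxaliplatin, again with the groups apart, a log2 fold change of 0.38 (SE 0.09, 95% interval 0.18 to 0.57, edgeR adjusted p = 0.005). The kidney marker sums given above moved in the same mice. The proximal tubule sum, mostly through Kap, and the macrophage sum were lower, and the distal nephron and adipocyte sums were higher. The part of these sums in the changes of Slc40a1, Slc11a2 and Hfe was not tested.

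Steap3 fell in kidney as it did in marrow. It was at 13.7, 12.3, 11.6, 11.9 and 13.7 CPM in the vehicle kidneys and 6.14, 10.1, 8.81, 9.05 and 6.96 CPM after oxaliplatin, lowest in treated mice 1 and 5, and the groups were apart. The change was 1.54-fold, a log2 fold change of -0.63 (SE 0.13, 95% interval -0.90 to -0.36, edgeR adjusted p = 0.0016). It stood close to the fold threshold, and left it with oxaliplatin mouse 1 (-0.53) or mouse 5 (-0.56) left out and at library size alone (-0.49).

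Tfr2 was scarce in kidney, with 14 to 38 counts per vehicle library and 38 to 70 counts per oxaliplatin library. It was at 0.523, 1.30, 0.864, 1.53 and 0.972 CPM in the vehicle kidneys and 2.48, 1.48, 2.52, 1.33 and 2.01 CPM after oxaliplatin, with 2 treated mice inside the vehicle range. The rise was 1.89-fold, a log2 fold change of 0.92 (SE 0.28, 95% interval 0.32 to 1.52, edgeR adjusted p = 0.021). Its adjusted p rose above 0.05 when vehicle mouse 1 or 3 or oxaliplatin mouse 1 or 3 was left out (0.053 to 0.055), within a range of 0.008 to 0.064 over 19 alternatives. With oxaliplatin mouse 1 left out both kidney calls ended, Steap3 under the fold threshold at -0.53 and Tfr2 at an adjusted p of 0.053, and with vehicle mouse 1 or 3 or oxaliplatin mouse 3 or 5 left out 1 gene was called.

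The storage genes and Tfrc did not pass the test in kidney. Fth1 was at 3697, 3404, 4428, 4481 and 4930.0 CPM in the vehicle kidneys and 3881, 3862, 3654, 2693 and 2729 CPM after oxaliplatin, a log2 fold change of -0.32 (SE 0.13, 95% interval -0.58 to -0.05, edgeR adjusted p = 0.071). Treated mice 4 and 5 were below every vehicle mouse and mice 1 to 3 lay within the vehicle range. Ftl1 had 351 to 421 CPM with vehicle and 337 to 409 CPM with oxaliplatin, a log2 fold change of -0.09 (SE 0.07, 95% interval -0.24 to 0.07, edgeR adjusted p = 0.41), and at library size alone its sign turned (0.05). The kidney ratio of Fth1 to Ftl1 per kilobase was 10.97, 9.27, 11.2, 12.2 and 12.2 with vehicle and 9.90, 10.4, 10.4, 8.25 and 8.45 with oxaliplatin, overlapping, and the log2 difference changed by -0.24 (exact two-sided permutation test, adjusted p = 0.13). Tfrc ranged over 47.0 to 61.2 CPM with vehicle and 36.4 to 54.0 CPM with oxaliplatin, a log2 fold change of -0.28 (SE 0.11, 95% interval -0.52 to -0.04, edgeR adjusted p = 0.071). Ncoa4 ranged over 88.3 to 96.2 CPM with vehicle and 83.4 to 124 CPM with oxaliplatin, a log2 fold change of 0.11 (SE 0.08, 95% interval -0.07 to 0.28, edgeR adjusted p = 0.36). Fth1 passed in 4 and Tfrc in 5 of their 19 alternatives.

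**Figure D3:**
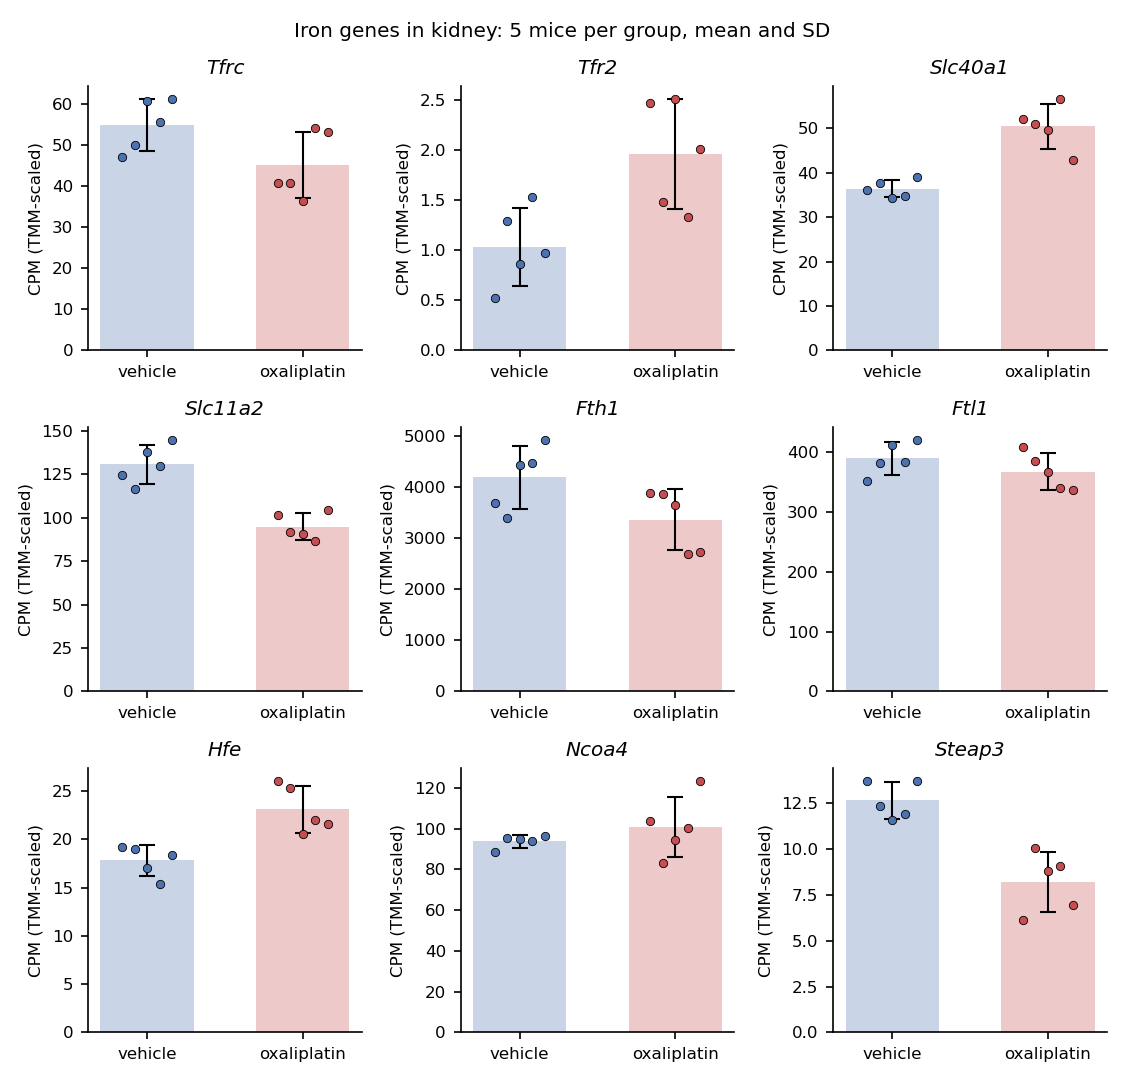
CPM of the 9 iron genes in kidney on the vertical axes, 1 panel per gene, with points for the 5 vehicle (blue) and 5 oxaliplatin (red) mice, bars for group means and whiskers for the SD. The groups are apart for Slc40a1 and Hfe (higher) and for Slc11a2 and Steap3 (lower), and overlap for the other 5.

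The responses of the 2 tissues were compared with a tissue by treatment term fitted to all 20 libraries. It passed an adjusted p of 0.05 for 6 of the 9 genes, where 30.1% of 24321 genes did. The marrow response was lower than the kidney response for Tfr2 by 1.73 on the log2 scale (SE 0.40, edgeR adjusted p = 0.0024), for Tfrc by 1.03 on the log2 scale (SE 0.24, edgeR adjusted p = 0.0027), for Slc11a2 by 0.73 on the log2 scale (SE 0.20, edgeR adjusted p = 0.0065), for Slc40a1 by 0.61 on the log2 scale (SE 0.14, edgeR adjusted p = 0.0017) and for Ncoa4 by 0.47 on the log2 scale (SE 0.15, edgeR adjusted p = 0.024). It was higher for Ftl1 by 0.64 on the log2 scale (SE 0.15, edgeR adjusted p = 0.0031). For Ncoa4 the adjusted p was 0.05 without marrow oxaliplatin mouse 1, and the call ended with marrow oxaliplatin mouse 4 or kidney oxaliplatin mouse 5 left out (adjusted p = 0.069 and 0.055), without marrow oxaliplatin mice 3 and 4 (0.053) and with no filter beyond 1 count (0.051), within a range of 0.0058 to 0.069 over 27 alternatives. Tfr2 was called in opposite directions in the tissues, and Steap3 was called lower in both.

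The difference between tissues did not pass the test for Steap3 (-0.16, 95% interval -0.71 to 0.39, edgeR adjusted p = 0.7), Fth1 (0.08, interval -0.31 to 0.47, adjusted p = 0.79) or Hfe (0.16, interval -0.19 to 0.51, adjusted p = 0.52). The Steap3 interval spans differences of up to 0.71 on the log2 scale, and without marrow oxaliplatin mice 3 and 4 its difference was -0.60 (adjusted p = 0.029, within 0.029 to 1 over 27 alternatives).

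**Figure D4:**
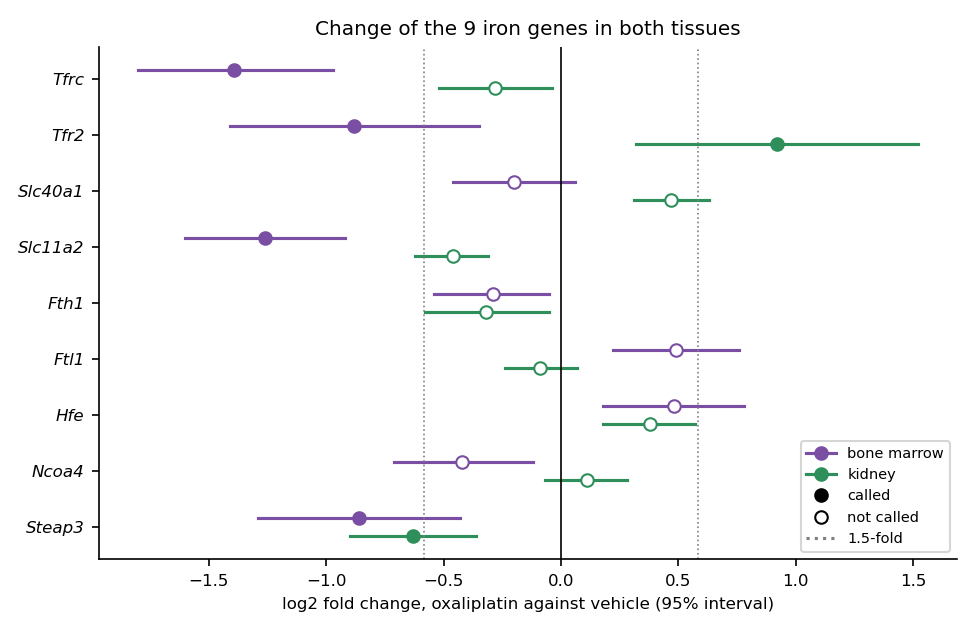
log2 fold change of oxaliplatin against vehicle on the horizontal axis with its 95% interval, for the 9 iron genes on the vertical axis in bone marrow (purple) and kidney (green), filled where called, with dotted lines at 1.5-fold. Tfr2 lies at -0.88 in marrow and 0.92 in kidney, while Steap3 lies at -0.86 and -0.63.

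Other genes of iron handling were counted in 6 lists with 53 genes in all. In marrow 22 of 47 tested were called, 15 higher and 7 lower, with a median log2 fold change of 0.14, where 23.3% of all genes tested were called (11.6% higher and 11.8% lower). At library size alone 24 were called, 18 higher and 6 lower. Of 11 tested genes of systemic regulation 7 were called higher and 1 lower. The iron carrier transferrin (Trf) was at 158, 179, 180.3, 214 and 147 CPM in the vehicle mice and 2071, 1160.0, 637, 925 and 896 CPM after oxaliplatin, a log2 fold change of 2.70 (SE 0.28, 95% interval 2.10 to 3.29, edgeR adjusted p = 1.3e-05). Erythroferrone (Erfe), a hormone of erythroblasts that lowers hepcidin and is also made in skeletal muscle, was at 4.75, 3.55, 7.499, 3.93 and 4.26 CPM in the vehicle mice and 15.1, 34.6, 36.8, 32.2 and 20.1 CPM after oxaliplatin, a log2 fold change of 2.53 (SE 0.28, 95% interval 1.93 to 3.13, edgeR adjusted p = 2.0e-05). Both were higher in every treated mouse, and Erfe was thus higher while 9 of 11 early erythroid genes were called lower. Hemojuvelin (Hjv), a coreceptor of bone morphogenetic proteins made in muscle and liver, was at 0.0633, 0.0291, 1.20, 0.0570 and 0.390 CPM in the vehicle mice, 3 of them under the floor of 3 counts, and 10.6, 9.06, 20.4, 14.1 and 12.9 CPM after oxaliplatin, a log2 fold change of 5.28 (SE 0.71, 95% interval 3.72 to 6.84, edgeR adjusted p = 1.6e-04). Without vehicle mouse 3 its log2 fold change was 6.65. Its highest vehicle values were in mice 3 and 5, where the skeletal muscle sum was 107 and 100.3 CPM against 9.75 to 28.7 CPM in the other 3, and its highest treated value was in mouse 3, where that sum was 828 CPM. In treated mouse 4 Hjv stood at 14.1 CPM and the skeletal muscle sum at 45.0 CPM. The part of muscle RNA in the rise was not tested.

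The mitochondrial list moved the other way in marrow, with 4 of 6 tested genes called lower and none higher (median -0.94). Slc25a37 (mitoferrin 1), which brings iron into the mitochondria of erythroblasts, was at 1501, 1639, 1733, 1726 and 1344 CPM in the vehicle mice. After oxaliplatin it was at 309.9, 398, 396, 269 and 282 CPM, a log2 fold change of -2.26 (SE 0.15, 95% interval -2.58 to -1.95, edgeR adjusted p = 2.9e-07). Abcb10, its partner in the inner membrane, had 322 to 427 CPM with vehicle and 67.0 to 124 CPM with oxaliplatin, a log2 fold change of -2.10 (SE 0.16, 95% interval -2.44 to -1.76, edgeR adjusted p = 9.1e-07). Glrx5, a glutaredoxin of iron-sulfur cluster assembly, changed by -1.14 (SE 0.20, edgeR adjusted p = 8.9e-04). In the heme list 3 of 11 were called higher and 1 lower, Blvrb, a biliverdin reductase abundant in red cells, at -1.48 (SE 0.17, edgeR adjusted p = 2.8e-05). Hemopexin (Hpx) was called higher at 2.03 (SE 0.56, edgeR adjusted p = 0.014) but stayed under 1 CPM in every mouse. Tmprss6, the protease that cleaves hemojuvelin, was called lower at -1.77 (SE 0.35, edgeR adjusted p = 0.0016), from a mean of 1.18 CPM.

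Both tested ferroxidases that work beside ferroportin were called higher in marrow (Heph by 1.38 and Cp by 1.17 on the log2 scale). Of 12 tested genes of other uptake and reduction 3 were called higher, Steap4, a ferrireductase of adipose tissue, by the most, at 2.10 (SE 0.20, edgeR adjusted p = 7.4e-06), and 1 was called lower. The adipocyte sum rose in the same mice, and its part in this was not tested. Of the 5 genes of cell regulation (Aco1, Ireb2, Fbxl5, Pcbp1 and Pcbp2), which encode the iron regulatory proteins, the adaptor that marks Ireb2 for degradation and 2 iron chaperones, none was called by edgeR or DESeq2 with their usual scaling, and Aco1 alone passed an unadjusted or an adjusted p of 0.05 in edgeR, with a change of 0.53 (SE 0.13, edgeR adjusted p = 0.0079). Aco1 was called higher at library size alone, and Fbxl5 was called higher without oxaliplatin mice 3 and 4.

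In kidney 7 of 47 tested genes of these lists were called, all higher, with a median log2 fold change of 0.05. Of all genes tested 11.5% were called in either direction, a share near that of these lists. By direction 7.68% of all genes were called higher and 3.81% lower. At library size alone 9 were called, all higher. Steap4 was at 0.597, 0.762, 1.04, 0.161 and 0.162 CPM in the vehicle kidneys and 4.52, 2.63, 2.66, 4.11 and 6.30 CPM after oxaliplatin, a log2 fold change of 2.89 (SE 0.42, 95% interval 1.98 to 3.80, edgeR adjusted p = 2.6e-04). The adipocyte sum was higher in the same kidneys, and its part in the Steap4 rise was not tested. Lcn2, which binds siderophores and marks injured tubules, was at 1.34, 1.52, 1.86, 1.37 and 1.46 CPM with vehicle and 9.37, 3.43, 3.34, 8.21 and 7.11 CPM with oxaliplatin, a log2 fold change of 2.06 (SE 0.29, 95% interval 1.44 to 2.67, edgeR adjusted p = 1.3e-04). Ceruloplasmin (Cp) was at 22.2, 27.6, 23.5, 19.8 and 24.8 CPM with vehicle and 75.9, 45.6, 43.8, 68.5 and 93.6 CPM with oxaliplatin, a log2 fold change of 1.48 (SE 0.22, 95% interval 0.99 to 1.96, edgeR adjusted p = 9.2e-04). Each treated mouse was above each vehicle mouse for these 3 genes. Haptoglobin (Hp), which binds free hemoglobin, changed by 2.67 (SE 0.51, edgeR adjusted p = 0.0031), and Scara5, a ferritin receptor, by 0.74 (SE 0.21, edgeR adjusted p = 0.011), the latter with the groups overlapping. Without the fold threshold 3 of the 5 genes of cell regulation passed in kidney, all lower, where 29.4% of all genes tested passed. Hamp and Hamp2, the hepcidin genes, did not have enough counts to be tested in either tissue.

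**Figure D5:**
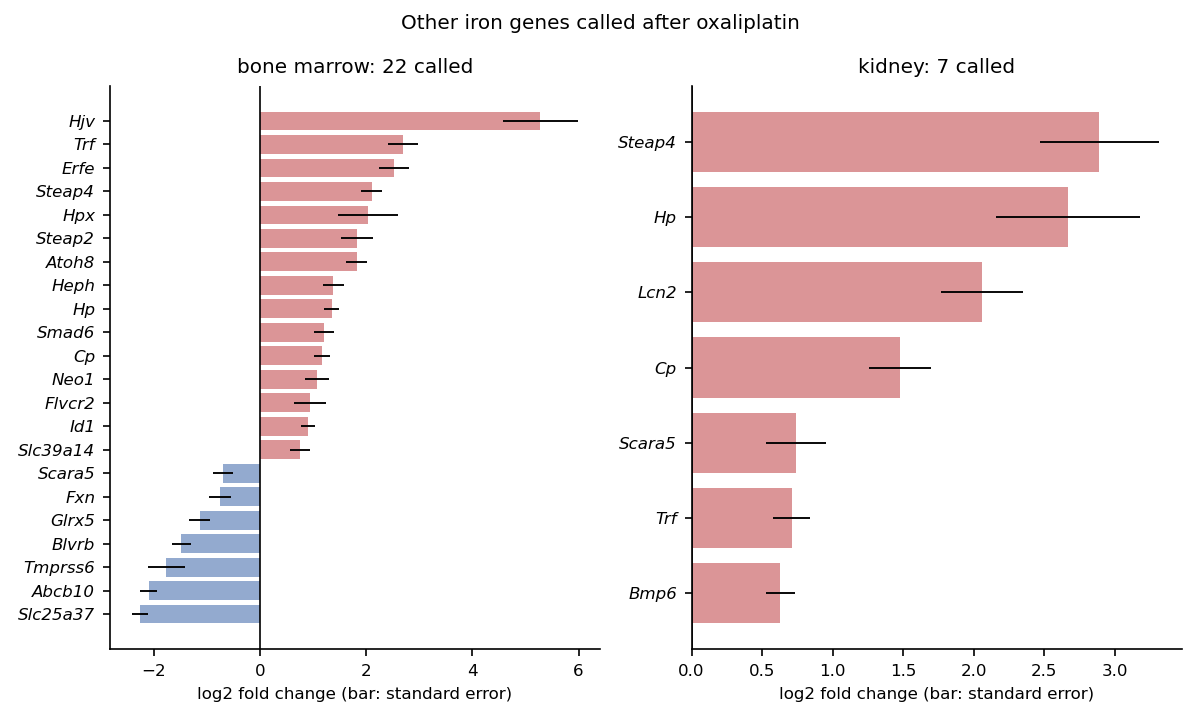
log2 fold change of oxaliplatin against vehicle on the horizontal axes, with its standard error, for the other iron genes called in bone marrow (22 genes, left) and kidney (7 genes, right). The bars run from -2.26 for Slc25a37 to 5.28 for Hjv in marrow, and all 7 in kidney lie above 0.

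The genes whose log2 CPM followed Tfrc most closely over the 10 marrow libraries were Eef2k, Gm29718 and Il1rl1 (Pearson r = 0.997, 0.994 and 0.993). For Slc40a1 in marrow they were Apol9a, Ndst3 and Erap1 (r = 0.925, 0.916 and 0.909). In kidney they were Ccdc50, Skil and Metap2 for Tfrc (r = 0.956, 0.945 and 0.927) and Meis3, Cad and Aoc1 for Slc40a1 (r = 0.976, 0.974 and 0.970). These are the highest values among all tested genes over libraries that share treatment groups, and describe likeness only.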

How the data were processed

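There were 10 libraries of each tissue, and groups were taken from the labels. The authors aligned reads with STAR with an Ensembl annotation and deposited raw counts per gene and library, 1 table per tissue. The labels name rRNA depletion and random priming and the methods name a SMARTer kit, and strand use is not given in the sources used here. After repeated lines and 1 incomplete line were removed from each table, 55486 genes with distinct identifiers were kept. Counts were scaled by TMM and tested with edgeR 4.0.16 in R 4.3.3 (filterByExpr with 10 counts, robust quasi-likelihood test, two-sided, Benjamini-Hochberg over all genes tested). Treatment was the term within a tissue, and a tissue by treatment term used all 20 libraries. Contrasts within a mouse used log2 CPM with a prior count of 2 and an exact two-sided permutation test over all divisions of 10 mice, adjusted over 11. On simulated data the fits recovered 47% of 2-fold changes in marrow, 74% in kidney and 48% for the tissue by treatment term. A gene that was not called may therefore still have changed. In the marrow simulation 100 of 22363 genes were changed 2-fold and 100 were changed 3-fold, where 5221 were called in the real marrow. With fewer changed genes the Benjamini-Hochberg adjustment is stricter, so the recovered shares may be too low for the real data. They were also not taken for the iron genes alone, and do not give the recovery of those genes. With nothing changed, 0 genes were called in marrow and 1 in kidney. Total counts limit precision as given with the levels.

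The members and gene lists were chosen with earlier results of these data known. Named genes were all 9 members, up to 5 called pathway genes with the largest rise and fall per tissue, and the 3 genes most correlated with Tfrc and with Slc40a1. Other genes named, among them Aco1, Heph and single marker genes, were chosen after their values were seen. Alternatives were DESeq2 1.42.0, other scalings and filters, a replicate block, a Y-linked covariate, other fold rules, ferritin copies added, and each mouse left out. The labels call the libraries biological replicates, but do not say which share a cage, litter or day. GENCODE M21 on GRCm38 gave gene positions, transcript lengths, the hairpin search and overlaps between exons.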

Additional observations from a re-analysis of the deposited data

Results flagged for a closer look

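In 4 of 88 groups of 5 mice examined, 1 mouse stood apart from the other 4 by Dixon's 95% criterion, where chance alone gives about 1 in 20, or 4.4 groups. Ftl1 in bone marrow was at 308 CPM in oxaliplatin mouse 5, against 402 to 437 CPM in the other treated mice. Ncoa4 in kidney was at 88.3 CPM in vehicle mouse 1, against 93.9 to 96.2 CPM in the others. Blvrb in bone marrow was at 259.7 CPM in vehicle mouse 5, against 331 to 349.7 CPM. The log2 difference of Tfr2 from the early erythroid list was -2.52 in vehicle mouse 4, against -2.20 to -2.16 in the others.

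The response to oxaliplatin differed between the tissues for 6 of the 9 iron genes by the tissue by treatment term in edgeR, where 30.1% of 24321 genes differed. The marrow response minus the kidney response was -1.03 for Tfrc, -1.73 for Tfr2, -0.61 for Slc40a1, -0.73 for Slc11a2, 0.64 for Ftl1 and -0.47 for Ncoa4 on the log2 scale.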

How the results depend on the processing

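In bone marrow 4 iron genes were called, 2 when tested against 1.5-fold, 7 with no fold threshold, and 4 to 5 with 1 mouse left out (5, with Ftl1, without oxaliplatin mouse 5). In kidney 2 were called, 1 with the replicate block, 5 with no fold threshold, and 0 to 2 with 1 mouse left out. Tested against 1.5-fold in edgeR, 0 were called in kidney, where 5 passed an adjusted p of 0.05 with no fold threshold. Of the 47 other iron genes tested in kidney 7 were called, 4 when tested against 1.5-fold and 18 with no fold threshold. Of all genes tested, 2730 of 22363 in marrow and 454 of 19293 in kidney passed against 1.5-fold. With no fold threshold 33.1% of all genes passed in marrow and 29.4% in kidney. Within-mouse contrasts past the threshold numbered 3, 6 with the median over the list and 5 without oxaliplatin mice 3 and 4, which was chosen after seeing the data. With 1 mouse left out the counts ranged from 21 to 24 and from 6 to 8 for the other iron genes in marrow and kidney, from 5 to 6 for differences between tissues and from 3 to 4 for contrasts.

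Signs turned for Ftl1 in kidney at library size alone (0.05), for the tissue difference of Fth1 with at least 10 counts in every library (-0.03) and without mice 3 and 4 (-0.01), and for that of Steap3 without marrow oxaliplatin mouse 1 (0.01, within -0.36 to 0.01 over mice left out). They also turned for Slc11a2 against the early erythroid list with its median (0.08), without vehicle mouse 3 (0.01) and without oxaliplatin mouse 3 (0.06, within -0.10 to 0.06 over mice left out), and for Hfe and Ftl1 against the macrophage median (-0.60 for both). The cause was not tested.

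Deviations from the group mean were correlated between same-numbered vehicle and oxaliplatin libraries (r from -0.118 to 0.228 in marrow and from -0.154 to 0.0754 in kidney). Between same-numbered marrow and kidney libraries of the same treatment r was from -0.0938 to 0.206. Of these 10 pairs 2 were the best match of the marrow library. These values do not settle whether a number marks a shared mouse across tissues, or a shared cage, litter or day. With the replicate block the edgeR adjusted p was 0.064 for Tfr2 in kidney, 0.041 for Tfrc in kidney and 0.054 for Ncoa4 in marrow, within ranges over the alternatives of 0.008 to 0.064, 0.016 to 0.41 and 0.0064 to 0.095. Library size alone moved the higher genes from 49.6% to 63.4% of those called in marrow and from 66.8% to 82.7% in kidney. Hfe in marrow had an adjusted p of 0.05 without vehicle mouse 3 (0.45) and without vehicle mouse 5 (0.41), within 0.0024 to 0.05. Tfr2 in kidney, at 14 to 70 counts per library, was the value most limited by depth among the 9 genes.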
